A study of Mus musculus with 14 samples.

Results

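The comparison joined both integrin inhibitors and asked what they shared: 7 aortic RNA libraries from mice given β-aminopropionitrile (BAPN) with an inhibitor against 4 from mice given BAPN alone, 11 of the 14 libraries of the series. The libraries were assigned to the groups by their labels. The labels give all groups as ascending aortic tissue of C57BL/6 mice taken in the model's week 6. The BAPN group (n = 4) had BAPN without an inhibitor, and the inhibitor groups had BAPN with Cilengitide (n = 3) or BAPN with SB273005 (n = 4). A PBS group (n = 3) had neither BAPN nor an inhibitor, and its values are given as a reference. The labels give the animals' age and sex in no group, and no dose or schedule of any agent. Nor do they state that every sample is a different animal; p-values here reflect the spread among samples, which may be partly technical.

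BAPN blocks the lysyl oxidases, the enzymes that cross-link collagen and elastin, and is used in mice to provoke aneurysm and dissection of the thoracic aorta. Integrins are paired α and β chains through which cells hold on to the matrix and read its stiffness. Chains that pair with αV bind matrix proteins that carry the RGD motif, such as vitronectin, fibronectin and osteopontin, and some of them release active TGF-β from its latent complex. Cilengitide is a cyclic RGD pentapeptide that competes for the αV integrins, and SB273005 is a nonpeptide antagonist of αV integrins. The pair thus differ in chemical class, and a gene that moved the same way with both was the item sought.

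Each library held 49027885 to 72584877 estimated counts, and the tested genes took up 98.84 to 99.27% of them. Features of single libraries bear on the results. SB273005 replicate 2 had 17.9% of its counts in mitochondrially encoded genes, against 4.1 to 10.2% in the other 13 libraries, and 1440 library-scaled counts (CPM) of the smooth muscle actin gene Acta2, against 6760 to 10000 CPM in the other libraries of its group. BAPN replicate 1 had matrix genes well above the other BAPN libraries, as described below. PBS and SB273005 replicates 1 to 3 also formed a set of their own, found in the data and not in the labels: the kidney gene Umod was at 24.6 to 35.4 CPM there and at 59.1 to 78.2 CPM in all BAPN and Cilengitide libraries and SB273005 replicate 4. Counts of H2-Ea, a class II antigen presentation gene silent in the C57BL/6 strain, were 0 throughout the former set and 83 to 130 throughout the latter. The labels give 1 strain for all groups, and what sets these libraries apart was not tested. Results were therefore also taken without SB273005 replicates 1 to 3, within the second set. There SB273005 was a single library assumed to vary like the other groups. Joint values in that setting weigh 3 Cilengitide libraries against 1 SB273005 library, so they are drawn towards the value of Cilengitide alone. That library, SB273005 replicate 4, had 13500 CPM summed over heat shock and chaperone genes, against 2270 to 5570 CPM in the other 13 libraries. In bulk tissue, fewer cells of a type and less RNA per cell cannot be told apart.

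No gene passed the test of the 7 inhibitor libraries against BAPN (quasi-likelihood test in edgeR, threshold 0.05 on the Benjamini-Hochberg adjusted p, 0 of 13294 tested genes, 0%), so no shared change was called. At an unadjusted p under 0.05 there were 1643 genes (12.4%), 864 higher (6.5%) and 779 lower (5.86%), of which 1634 (12.3%) had the same sign for both inhibitors. Over all tested genes 8959 (67.4%) had the same sign, 4573 above BAPN with both (34.4%) and 4386 below (33%). Both inhibitors were compared with the same BAPN libraries, which alone makes signs coincide, so this share is a description. Choice by the joint contrast makes signs coincide further, as in 1634 of the 1643 genes above. Equal signs among genes called by that contrast are therefore a description too. DESeq2, run on the same genes, called 211 of 12987 genes with an adjusted p (1.62%), 116 higher (0.893%) and 95 lower (0.732%), all 211 with the same sign for both inhibitors. In 174 genes (1.31%) the 7 inhibitor and 4 BAPN libraries did not overlap in CPM, 88 higher (0.662%) and 86 lower (0.647%). The deposited FPKM are scaled to transcript length and library size but lack the further library factor (TMM) used for the CPM. On them the balance tipped to lower: 245 genes (1.84%) did not overlap, 35 higher (0.263%) and 210 lower (1.58%). Limma on log2(FPKM + 1) passed 0 genes, with 578 higher and 1198 lower at an unadjusted p under 0.05. Taken by itself, Cilengitide vs. BAPN gave 0 genes in edgeR (0%; 807 genes, 6.07%, at an unadjusted p under 0.05; 21 in DESeq2, 0.159%), and SB273005 vs. BAPN gave 4 (0.0301%; 1 higher, 0.00752%, and 3 lower, 0.0226%; 395 in DESeq2, 2.98%; 2146 genes, 16.1%, at an unadjusted p under 0.05). These 4 were Slc5a3, which rose with SB273005, and Inka2, Kcnh2 and Igsf9, which fell (edgeR adjusted p = 0.0468, 0.0243, 0.0468 and 0.0468).

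Among libraries left out 1 at a time, BAPN replicate 1 changed the number of genes passing in edgeR most. Without BAPN replicate 1, 49 genes passed (0.369%), 36 higher (0.271%) and 13 lower (0.0978%). All 49 had the same sign for both inhibitors, which choice by the joint contrast favours. BAPN replicate 1 deviated from its group together with Cilengitide replicate 1 (r = 0.304) and SB273005 replicate 1 (r = 0.361), which both stayed in. What this shared deviation adds to the 49 genes was not tested. Leaving out SB273005 replicate 4 gave 7 genes, 3 of them with the same sign for both. These 7 included Inka2 and Stk32b but also H2-Ea, which marks the library sets. Without that replicate SB273005 lay wholly in the set of PBS. Each of BAPN replicate 4, Cilengitide replicate 3 and SB273005 replicate 2 gave 1 gene when left out, Inka2 for the first pair and Tub for SB273005 replicate 2. With BAPN replicate 1 and SB273005 replicate 2 both left out, 53 genes passed (0.399%), 36 of them among the 49.

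**Figure D1:**
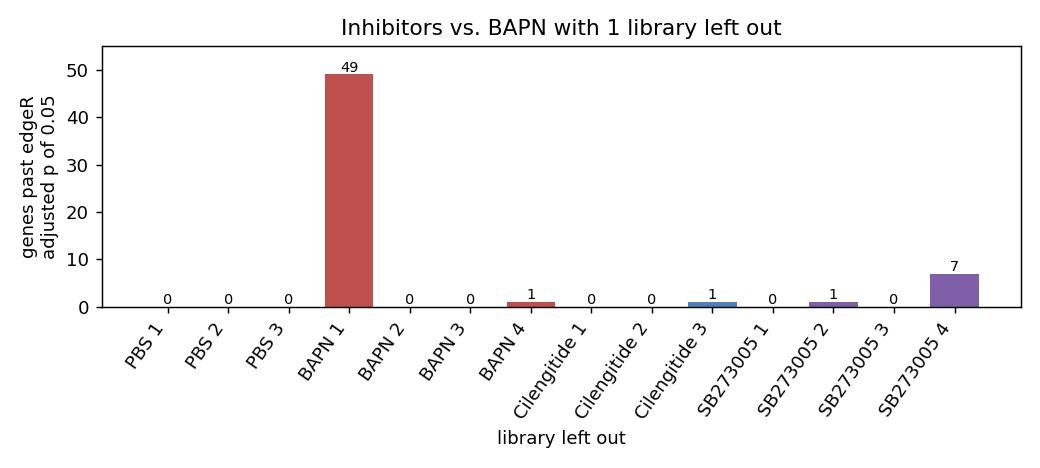
Number of genes past the edgeR adjusted p of 0.05 in inhibitors vs. BAPN when each library on the horizontal axis was left out; bar colours mark the group of that library. The count was 0 with all libraries, 49 without BAPN replicate 1, 7 without SB273005 replicate 4 (H2-Ea, a marker of the library sets, among them), and 0 or 1 without any other.

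Among genes with a mean of 1 FPKM or more over the BAPN-fed libraries that were lower with both inhibitors, those closest to the threshold were Inka2, Kcnh2 and Igsf9, each at an edgeR adjusted p of 0.0716. Inka2, an inhibitor of the kinase Pak4 (ENSMUSG00000048458, mm10 chromosome 3, 105704599 to 105720842, plus strand), was at 33.7, 41.7, 42.2 and 28.9 CPM in BAPN. It was at 21.2, 22 and 29.3 CPM with Cilengitide and at 14.1, 12, 15.4 and 17.8 CPM with SB273005. The groups overlapped through Cilengitide replicate 3 and BAPN replicate 4, and all SB273005 libraries lay below all others. The log2 difference was −1.0 ± 0.14 (SE), −0.60 ± 0.17 for Cilengitide and −1.30 ± 0.16 for SB273005, and PBS stood higher than BAPN at 47.9 to 59.1 CPM.

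Kcnh2, the gene of a voltage-gated potassium channel of heart and smooth muscle (ENSMUSG00000038319, mm10 chromosome 5, 24319589 to 24351604, minus strand), was at 92.2, 111, 117 and 104 CPM in BAPN. Its levels were 70.3, 74.2 and 78.9 CPM with Cilengitide and 51.9, 59.7, 74.8 and 62.7 CPM with SB273005. Every inhibitor library lay below every BAPN library, with a log2 difference of −0.66 ± 0.10. Igsf9, an immunoglobulin superfamily member known from neurons (ENSMUSG00000037995, mm10 chromosome 1, 172481788 to 172498878, plus strand), was at 43.3, 38.4, 39.5 and 35.1 CPM in BAPN. With Cilengitide it was at 20.7, 29.4 and 28.0 CPM, and with SB273005 at 20.6, 17.7, 23.7 and 16.5 CPM. These groups did not overlap either, and the difference was −0.82 ± 0.12. PBS held the highest levels of both genes, at 140 to 159 CPM for Kcnh2 and 53.8 to 70.5 CPM for Igsf9.

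Under the same level filter the next were Bdkrb2, Fam118a, Tppp3, Nhsl2 and Smim5, with edgeR adjusted p from 0.123 to 0.124. Bdkrb2, the bradykinin B2 receptor, was at 6.89 to 14.7 CPM in BAPN, at 5.86, 5.80 and 8.69 CPM with Cilengitide and at 3.24 to 4.27 CPM with SB273005 (−1.11 ± 0.19). Tppp3, of the tubulin polymerisation-promoting family, was at 88.8 to 162 CPM in BAPN, at 51.9 to 71.5 CPM with Cilengitide and at 34.0 to 57.4 CPM with SB273005 (−1.01 ± 0.19). Fam118a and Nhsl2 also had no overlap between inhibitor and BAPN libraries, at −0.63 ± 0.11 and −0.58 ± 0.11. Smim5, at −0.96 ± 0.18, overlapped through Cilengitide replicate 3.

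Among genes of that level higher with both inhibitors, Stk32b came closest to the threshold (edgeR adjusted p = 0.116). This serine/threonine kinase gene (ENSMUSG00000029123, mm10 chromosome 5, 37446825 to 37717171, minus strand) was at 17.0, 12.9, 16.0 and 16.4 CPM in BAPN. It was at 29.6, 27.8 and 24.3 CPM with Cilengitide and at 32.7, 39.5, 27.7 and 24.6 CPM with SB273005. The lowest inhibitor library thus stood well above the highest BAPN library, and the log2 difference was 0.92 ± 0.15. PBS was lower still, at 6.41 to 9.49 CPM, so the order from low to high was PBS, BAPN and inhibitors, the reverse of that of Inka2, Kcnh2 and Igsf9.

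Daam2, a formin that acts in Wnt signalling and actin assembly, was at 14.4, 10.2, 9.97 and 11.7 CPM in BAPN, at 26.6, 23.0 and 16.7 CPM with Cilengitide, and at 21.7, 22.3, 19.5 and 18.4 CPM with SB273005 (0.87 ± 0.15). Septin4, a septin GTPase gene, was at 7.59 to 11.7 CPM in BAPN and at 13.5 to 20.8 CPM over the 7 inhibitor libraries (0.86 ± 0.16). Galr2, a galanin receptor gene, had the largest difference of the 8 at 1.55 ± 0.32, at a low level of 0.802 to 1.95 CPM in BAPN and 2.58 to 5.74 CPM with an inhibitor. Its mean was 0.497 FPKM in BAPN and 1.41 FPKM with an inhibitor. It thus met the level filter through the inhibitor libraries, and its size is a description. Slc5a3, the sodium/myo-inositol cotransporter gene, was at 21.6 to 29.1 CPM in BAPN, just below the 29.2 to 32.7 CPM of Cilengitide and well below the 37.3 to 63.2 CPM of SB273005 (0.73 ± 0.14). Lrrk1, a leucine-rich repeat kinase gene, was at 59.6 to 95.9 CPM in BAPN and 99.3 to 133 CPM with an inhibitor (0.63 ± 0.12), and Hhipl1 and N4bp1 were at 0.55 ± 0.10 and 0.37 ± 0.08. None of these 8 genes had an overlap between the groups, and their edgeR adjusted p ran from 0.116 to 0.17. All 16 genes named so far by their p were called by DESeq2, and 11 of them passed in edgeR without BAPN replicate 1. The 16 were picked by p on the same counts, so neither count is separate support. Without SB273005 replicates 1 to 3, where Cilengitide has most of the weight, all 16 kept their direction. Inka2 was then at −0.71, Bdkrb2 at −0.81, Fam118a at −0.47, Kcnh2 at −0.57, Igsf9 at −0.75 and Stk32b at 0.77, each nearer to BAPN. Daam2 stayed at 0.87.

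**Figure D2:**
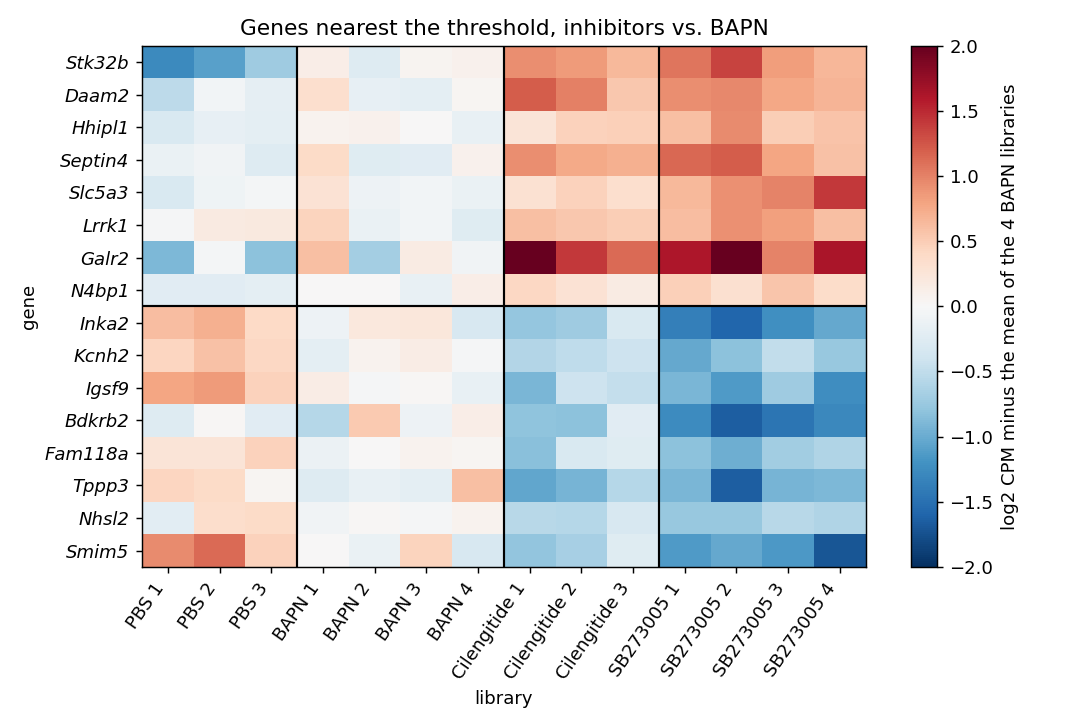
Level of 16 genes, the 8 in each direction with the smallest p among those with the same sign for both inhibitors and a mean of 1 FPKM or more over the BAPN-fed libraries, as log2 CPM minus the mean of the 4 BAPN libraries; rows are genes, columns are libraries, and black lines part the groups and the directions. All 7 inhibitor columns are red in the upper 8 genes and blue in the lower 8, and SB273005 is mostly the deeper in colour for the lower genes (Inka2 −1.30 vs. −0.60 with Cilengitide).

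The targeted receptors showed no shared difference of that size. Itgav, the αV chain, was at 125, 116, 118 and 112 CPM in BAPN, at 107, 99.4 and 112 CPM with Cilengitide and at 119, 81.5, 94.1 and 124 CPM with SB273005. The groups overlapped, and the log2 difference was −0.16 ± 0.11 (edgeR adjusted p = 0.569), or −0.09 without SB273005 replicates 1 to 3. Itgb3, whose product pairs with αV in the vitronectin receptor, was at 90.5 to 106 CPM in BAPN, 94.7 to 98.1 CPM with Cilengitide and 38.4 to 87.5 CPM with SB273005. It was thus lower than BAPN in each SB273005 library and level with it in Cilengitide (−0.62 ± 0.19 and −0.04 ± 0.21, edgeR adjusted p = 0.398 for both together), and without SB273005 replicates 1 to 3 the joint value was −0.14. Itgb5 was at 0.30 ± 0.16 and Itgb1, the partner of many α chains, at −0.23 ± 0.22, or 0.01 without SB273005 replicates 1 to 3. Itgb6 and Itgb8, the remaining αV partners, were below the level tested. Of 12 other integrin chains, 4 were above BAPN with both inhibitors and 7 below, with 2 and 2 at an unadjusted p under 0.05. Over all genes 34.4% were above with both and 33% below, with 6.5% and 5.86% higher and lower at that p.

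Itga11, whose product pairs with the β1 chain as a collagen receptor of mesenchymal cells, stood apart among the integrin genes. It was at 45.6 CPM in BAPN replicate 1 and at 11.3, 14.6 and 10.1 CPM in BAPN replicates 2 to 4. With Cilengitide it was at 131, 52.9 and 44.7 CPM, and with SB273005 at 120, 64.2, 49.0 and 62.4 CPM. Apart from BAPN replicate 1, which reached the lowest inhibitor level, the groups were far apart, and PBS was at 5.12 to 11.5 CPM. The log2 difference was 1.87 ± 0.49 (edgeR adjusted p = 0.227), and 2.64 without BAPN replicate 1 (edgeR adjusted p = 0.0343). Itga3 and Itga5, which bind laminin and fibronectin, were at −0.46 ± 0.19 and −0.61 ± 0.25, mostly through SB273005 (−0.76 and −0.80, against −0.06 and −0.36 with Cilengitide). Without SB273005 replicates 1 to 3 the joint values were −0.13 and −0.31, and Itga5 was at −0.41 without BAPN replicate 2.

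Matrix gene lists had positive medians with either inhibitor except for the non-fibrillar collagens with SB273005, and BAPN replicate 1 lay among the inhibitor libraries. Over all genes, 34.4% were above BAPN with both inhibitors, 33% below, and 6.5% and 5.86% higher and lower at an unadjusted p under 0.05. These shares are the reference for the counts of each list below. Fibrillar collagen genes, 9 tested, were above BAPN with both inhibitors in 8 and below in 0, and 4 were higher at that p. Their median log2 difference was 0.50 (0.42 with Cilengitide and 0.60 with SB273005), against 0.01 over all genes. Their summed level was 13100 to 15000 CPM in BAPN replicates 2 to 4 and 28700 CPM in BAPN replicate 1, beside 20800 to 31800 CPM with Cilengitide, 15400 to 32700 CPM with SB273005 and 10600 to 12500 CPM in PBS. Without BAPN replicate 1 the median was 0.85. Col1a1, the main chain of type I collagen, was at 7260, 3040, 3450 and 3840 CPM in BAPN, 9980, 6590 and 4610 CPM with Cilengitide and 8430, 8590, 3770 and 6600 CPM with SB273005 (0.66 ± 0.30, edgeR adjusted p = 0.404), and the difference was 1.01 without BAPN replicate 1. Col27a1 was unequal between the inhibitor groups: it was at 23.8 to 39.3 CPM with Cilengitide, overlapping the 27.7 to 36.8 CPM of BAPN, and at 46.6 to 66.1 CPM with SB273005. PBS was at 39.1 to 58.3 CPM.

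Ligands of the RGD and matricellular kind followed the collagens, with 13 of 19 above BAPN with both inhibitors, 4 below, and 9 higher at an unadjusted p under 0.05 (median 0.54). Comp, cartilage oligomeric matrix protein, was at 134, 95.6, 116 and 87.9 CPM in BAPN, at 862, 341 and 255 CPM with Cilengitide and at 821, 171, 340 and 177 CPM with SB273005. No inhibitor library overlapped BAPN, and the difference was 1.96 ± 0.46 (edgeR adjusted p = 0.199). As for Itga11, the library numbered 1 was the highest of each BAPN-fed group. Fn1, fibronectin, was at 2490 to 4120 CPM in BAPN and 2630 to 9280 CPM with an inhibitor (0.76 ± 0.33), and Thbs2, thrombospondin 2, at 76.7 to 223 and 155 to 517 CPM (1.17 ± 0.37). Spp1, osteopontin, was at 215 CPM in BAPN replicate 1, 68.8 to 76.9 CPM in the other BAPN libraries and 60.0 to 593 CPM with an inhibitor (1.2 ± 0.52, edgeR adjusted p = 0.388). Vtn, vitronectin, was near 1 to 2 CPM in most libraries and at 6.88 CPM in BAPN replicate 3, and its difference of −0.62 ± 0.68 turned to 0.45 without that library.

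Elastic fibre and cross-linking genes had 10 of 18 members above BAPN with both inhibitors and 2 below (median 0.17; 3 higher at an unadjusted p under 0.05). Loxl3, a lysyl oxidase paralog, was at 166, 132, 143 and 116 CPM in BAPN, at 245, 214 and 180 CPM with Cilengitide and at 242, 172, 196 and 188 CPM with SB273005. It had no overlap and a difference of 0.56 ± 0.12 (edgeR adjusted p = 0.19). Eln, elastin, was at 26600 CPM in BAPN replicate 1, at 10900 to 12600 CPM in the other BAPN libraries and at 14200 to 36500 CPM with an inhibitor (0.78 ± 0.32, edgeR adjusted p = 0.356, and 1.17 without BAPN replicate 1). Lox, the enzyme that BAPN blocks, was at 1330 CPM in BAPN replicate 1, at 485 to 607 CPM in the other BAPN libraries and at 540 to 1450 CPM with an inhibitor (0.50 ± 0.30, and 0.94 without BAPN replicate 1, edgeR adjusted p = 0.14; 0.33 without BAPN replicate 4). SB273005 replicate 3 was the inhibitor library nearest to BAPN for both.

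Proteoglycan, cartilage matrix and protease genes were similar in sign, while the other collagens were divided. Of 16 proteoglycan and cartilage matrix genes, 13 were above BAPN with both inhibitors and 2 below (median 0.52), with Fmod, a collagen-binding proteoglycan, at 1.06 ± 0.30. Col2a1, the cartilage collagen, was at 487 CPM in Cilengitide replicate 1 and 273 CPM in SB273005 replicate 1 but at 13.2 to 25.1 CPM in the other inhibitor libraries and 2.67 to 13.2 CPM in BAPN. Among matrix proteases and their inhibitors 12 of 21 were above and 1 below (median 0.18), with the gelatinase Mmp2 at 0.97 ± 0.31 and the collagenolytic cathepsin Ctsk at 0.87 ± 0.30. The other gelatinase, Mmp9, was the member below BAPN with both, at 2.36 to 7.06 CPM in BAPN, 2.70 to 4.18 CPM with Cilengitide and 1.33 to 2.80 CPM with SB273005 (−0.82 ± 0.28, and −0.44 without SB273005 replicates 1 to 3 or −0.47 without BAPN replicate 4). Of 14 other collagen genes 6 were above and 3 below (median 0.11, with −0.06 for SB273005 and 0.28 for Cilengitide), and Col16a1 was at 0.94 ± 0.28.

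**Figure D3:**
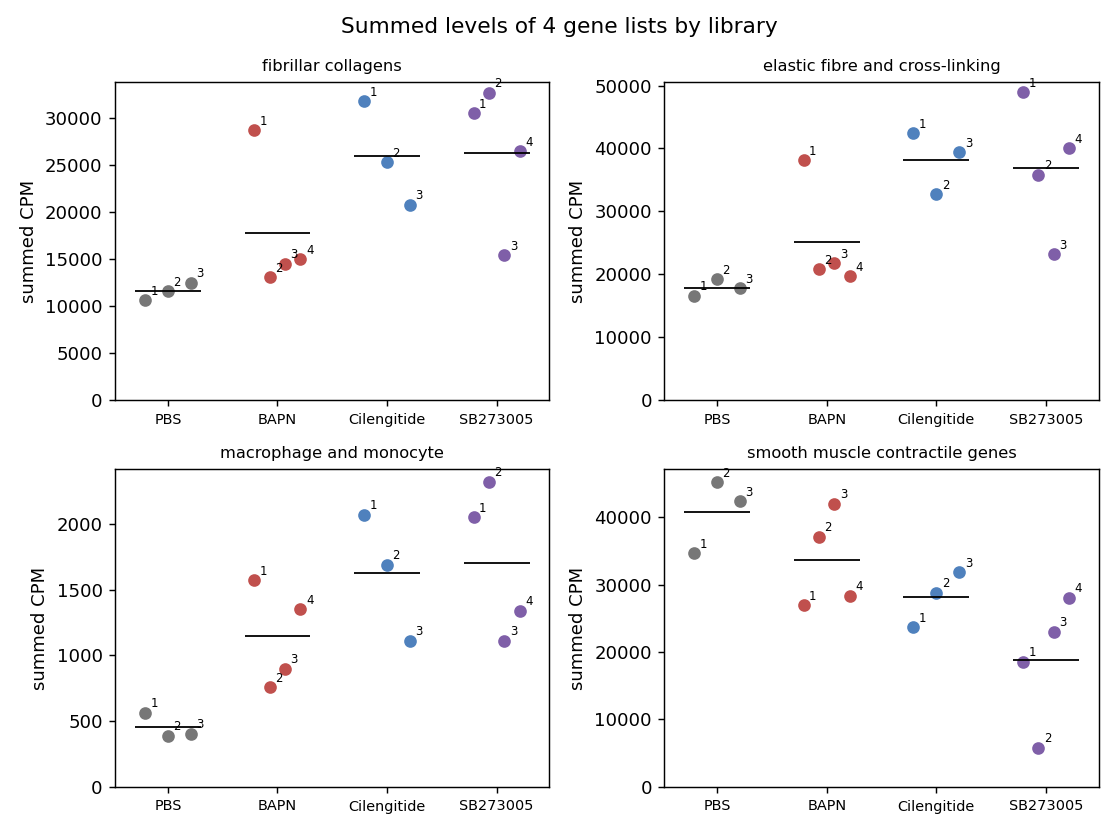
Summed CPM of 4 gene lists in each library, with replicate numbers beside the points and the group mean as a line. BAPN replicate 1 (fibrillar collagens 28700 CPM) lies among the inhibitor libraries in the matrix lists, and SB273005 replicate 2 (5840 CPM) lies far below the rest in the contractile list.

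BAPN replicate 1 was the highest of the 4 BAPN libraries in 8 of 9 fibrillar collagen genes, 12 of 14 other collagens, 14 of 18 elastic fibre genes and 12 of 19 RGD and matricellular genes, against 26.9% of all genes. The 36 genes that passed as higher without it included Itga11, Ltbp2, Piezo2, Spry1 and several secreted or matrix genes, named here after their values were seen. Col8a1, a collagen of the vessel wall, was at 290 CPM in BAPN replicate 1 and at 46.0, 60.6 and 31.1 CPM in replicates 2 to 4, against 568, 241 and 214 CPM with Cilengitide and 829, 408, 203 and 328 CPM with SB273005. Without that library its difference was 3.11, in place of 1.89 with it (edgeR adjusted p = 0.0361 and 0.3). Cthrc1, a secreted protein of activated fibroblasts, was at 159 CPM in BAPN replicate 1, 7.62 to 8.03 CPM in the other BAPN libraries and 23.1 to 241 CPM with an inhibitor (3.66 without it and 1.10 with it, edgeR adjusted p = 0.0327 and 0.608). Col11a1 was at 32.2 CPM in BAPN replicate 1, against 1.44 to 1.59 CPM in the others and 7.21 to 65.5 CPM with an inhibitor, and P4ha3, a collagen prolyl hydroxylase subunit, at 9.27 CPM against 0.788 to 1.13 and 4.98 to 28.3 CPM. Their means were 0.663 and 0.885 FPKM in BAPN and 2.12 and 3.72 FPKM with an inhibitor. Both thus met the level filter mainly through the inhibitor libraries.

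These genes passed once BAPN replicate 1 was out, so its place among the inhibitor libraries in them is a description. Gpr176, an orphan G protein-coupled receptor, was at 19.8 CPM in BAPN replicate 1 and at 3.54, 6.06 and 3.77 CPM in the other BAPN libraries, against 18.6 to 50.6 CPM with an inhibitor and 0.778 to 1.97 CPM in PBS. The secreted Wnt antagonists Frzb and Sfrp4 were at 1.63 and 1.03 without that library, beside 1.10 ± 0.31 and 0.75 ± 0.21 with it, and the Wnt receptor Fzd8 at 1.01, beside 0.71 ± 0.21 (edgeR adjusted p = 0.0256, 0.0383 and 0.0343 without it). Spry1, an inhibitor of receptor tyrosine kinase signalling, was at 1.2 and Fst, the activin antagonist follistatin, at 1.39 (edgeR adjusted p = 0.0129 and 0.0138). Piezo2, a mechanically gated channel, was at 25.9, 8.30, 11.4 and 12.5 CPM in BAPN and 22.5 to 73.3 CPM with an inhibitor (1.88 without that library and 1.44 ± 0.33 with it, edgeR adjusted p = 0.0343 and 0.19).

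The 13 lower genes in that comparison included some in which BAPN replicate 1 stood on the inhibitors' side and some in which it did not. Adh7, an alcohol dehydrogenase that oxidises retinol, was at 2.05 CPM in BAPN replicate 1, 4.76 to 5.93 CPM in the other BAPN libraries, 1.46 to 1.68 CPM with Cilengitide and 1.28 to 1.97 CPM with SB273005. No inhibitor library reached any BAPN library, and the difference was −1.46 ± 0.26 with all libraries and −1.71 without BAPN replicate 1 (edgeR adjusted p = 0.124 and 0.0129). Ccl11, the eosinophil chemokine eotaxin, was at 4.74 CPM in BAPN replicate 1, 10.5 to 14.9 CPM in the others and 2.90 to 7.31 CPM with an inhibitor (−1.13 ± 0.30 and −1.39, edgeR adjusted p = 0.242 and 0.0477). Mreg, melanoregulin, and Eef2k, the kinase of elongation factor 2, were at −1.30 and −0.70 without that library (edgeR adjusted p = 0.0383 for both), and BAPN replicate 1 was the lowest BAPN library for each.

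**Figure D4:**
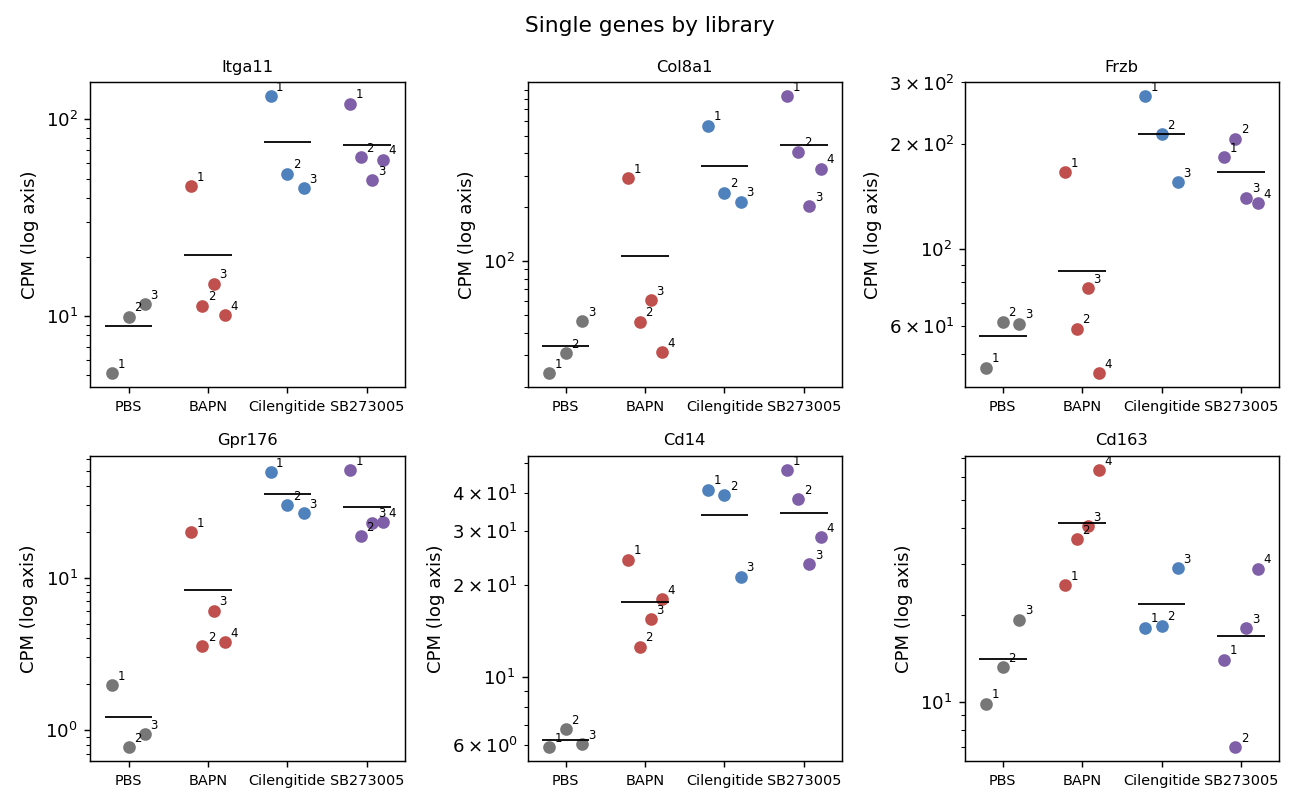
CPM of 6 genes by library on log axes, with replicate numbers beside the points and the group mean as a line. For Itga11, Col8a1, Frzb and Gpr176 BAPN replicate 1 (45.6, 290, 166 and 19.8 CPM) lies at the level of the inhibitor libraries; Cd14 is higher and Cd163 lower with both inhibitors than in most BAPN libraries.

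Of the TGF-β ligands, receptors and latent binding proteins, 14 of 19 were above BAPN with both inhibitors and 3 below (median 0.19). At an unadjusted p under 0.05, 5 were higher. The shares over all genes were 34.4% above with both, 33% below and 6.5% higher at that p. Tgfb1, the ligand whose latent form αV integrins bind, was at 65.3 to 80.8 CPM in BAPN and 72.3 to 120 CPM with an inhibitor (0.37 ± 0.17, edgeR adjusted p = 0.398). Ltbp2, a latent TGF-β binding protein of elastic fibres, was at 393 to 1060 CPM in BAPN and 987 to 2150 CPM with an inhibitor (1.06 ± 0.28, edgeR adjusted p = 0.239, and 1.40 without BAPN replicate 1, edgeR adjusted p = 0.0486). Eng, the co-receptor endoglin, was at 192 to 202 CPM in BAPN and 206 to 277 CPM with an inhibitor without overlap (0.28 ± 0.10). Known response genes of the pathway did not share a sign, with 7 of 15 above and 5 below (median 0.08), among them Id2 at −0.52 ± 0.21 (−0.31 without SB273005 replicates 1 to 3). Of 13 YAP and mechanosensitive target genes 9 were above BAPN with both and 1 below (median 0.20), with Ccn1 at 0.66 ± 0.33 (0.42 without SB273005 replicates 1 to 3 and 0.40 without BAPN replicate 4). The Wnt pathway list, 6 above and 5 below of 16, had a median of 0.06.

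Contractile smooth muscle genes lay on the other side. Of 18 tested, 15 were below BAPN with both inhibitors and 0 above, against 33% and 34.4% of all genes. At an unadjusted p under 0.05, 5 were lower, against 5.86% of all genes, and the list's median log2 difference was −0.59. The median was unequal between compounds, at −0.28 with Cilengitide and −0.81 with SB273005. The joint median was −0.41 without SB273005 replicate 2 and −0.29 without SB273005 replicates 1 to 3, where most of the weight is that of Cilengitide. The summed level was 27000 to 42000 CPM in BAPN, 23700 to 31900 CPM with Cilengitide and 5840 to 28100 CPM with SB273005, where SB273005 replicate 2 was the lowest. Acta2 was at 9980, 13400, 15900 and 9630 CPM in BAPN, at 9250, 10700 and 11500 CPM with Cilengitide and at 6760, 1440, 7470 and 10000 CPM with SB273005. These groups overlapped (−0.63 ± 0.37, edgeR adjusted p = 0.499), as did those of Myh11, the smooth muscle myosin heavy chain (−0.63 ± 0.34, edgeR adjusted p = 0.465). Synpo2, an actin-bundling protein of smooth muscle, was at 423 to 570 CPM in BAPN, 234 to 482 CPM with Cilengitide and 75.8 to 327 CPM with SB273005 (−0.95 ± 0.30, edgeR adjusted p = 0.286). Without SB273005 replicates 1 to 3 the differences of Acta2, Myh11 and Synpo2 were −0.24, −0.32 and −0.56, and Acta2 was at −0.41 without SB273005 replicate 2.

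Vasoactive receptor and calcium-handling genes had 10 of 18 members below BAPN with both inhibitors and 6 above (median −0.18). Kcnj8, a pore chain of the vascular ATP-sensitive potassium channel, was at 54.9, 58.1, 48.9 and 59.8 CPM in BAPN, at 28.7, 42.4 and 50.6 CPM with Cilengitide and at 35.7, 39.6, 39.6 and 34.0 CPM with SB273005. Cilengitide replicate 3 reached the lowest BAPN library, and the difference was −0.52 ± 0.13 (edgeR adjusted p = 0.199). Kcnma1, the large-conductance calcium-activated potassium channel, and Adra1d, an α1 adrenergic receptor, were at −0.63 ± 0.24 and −0.74 ± 0.26, the former at −0.37 without SB273005 replicates 1 to 3. The focal adhesion genes had 10 of 21 members below and 4 above (median −0.20, 0.02 with Cilengitide and −0.02 without SB273005 replicates 1 to 3). Vasp, an actin-binding protein of focal adhesions, was below BAPN in every inhibitor library (−0.34 ± 0.12), while Ptk2, focal adhesion kinase, was at 0.30 ± 0.11. The regulators of the smooth muscle state did not share a sign (5 of 16 above, 4 below, median 0.03). In these Notch3 was at 1.17 ± 0.41 (edgeR adjusted p = 0.314), with 49.9 to 67.9 CPM in BAPN. It was highest in the inhibitor libraries numbered 1, at 217 CPM with Cilengitide and 272 CPM with SB273005. Cilengitide replicates 2 and 3 were at 76.2 and 69.5 CPM, and SB273005 replicates 2 to 4 at 49.5, 142 and 110 CPM. The Notch ligand gene Jag1 was at 0.69 ± 0.24 (0.40 without SB273005 replicates 1 to 3).

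Myeloid genes were mostly higher with both inhibitors. Of 19 macrophage and monocyte genes 16 were above BAPN with both and 3 below, against 34.4% and 33% of all genes. At an unadjusted p under 0.05, 9 were higher and 1 lower, against 6.5% and 5.86%. The median was 0.62 (0.61 with Cilengitide and 0.69 with SB273005). The summed level was 760 to 1570 CPM in BAPN, 1110 to 2070 CPM with Cilengitide, 1110 to 2320 CPM with SB273005 and 389 to 565 CPM in PBS, so the groups of BAPN-fed mice overlapped. Cd14, the lipopolysaccharide co-receptor, was at 24.2, 12.6, 15.5 and 18.0 CPM in BAPN, at 41.0, 39.3 and 21.3 CPM with Cilengitide and at 47.5, 38.2, 23.4 and 28.7 CPM with SB273005 (0.96 ± 0.24, edgeR adjusted p = 0.204). Cd163, the haemoglobin scavenger receptor of tissue macrophages, went the other way: it was at 25.4, 36.6, 40.6 and 63.7 CPM in BAPN, at 18.1, 18.4 and 29.1 CPM with Cilengitide and at 14, 6.99, 18.0 and 29.0 CPM with SB273005. PBS was at 9.88 to 19.3 CPM, and the difference was −1.14 ± 0.33 (edgeR adjusted p = 0.276). In both genes BAPN replicate 1 was the BAPN library nearest to the inhibitors, and without it the differences were 1.15 and −1.31.

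All 9 Fcγ receptor and signalling genes were above BAPN with both inhibitors, 4 at an unadjusted p under 0.05 (median 0.78). Several are also macrophage markers, so the lists are not separate. Fcer1g, the shared Fc signalling chain, was at 15.1 to 26.9 CPM in BAPN and 20.5 to 47.7 CPM with an inhibitor (0.81 ± 0.30), and Fcgr3 was at 0.66 ± 0.28. Complement genes had 12 of 14 members above and 0 below, 8 at an unadjusted p under 0.05 (median 0.54). C4b was at 98.6 to 280 CPM in BAPN and 186 to 467 CPM with an inhibitor (0.80 ± 0.28), and the C1q chain gene C1qb at 67.2 to 152 and 108 to 237 CPM (0.77 ± 0.27). The leukocyte integrin genes Itgam, Itgax and Itgb2 were at 0.74 ± 0.35, 1.18 ± 0.70 and 0.76 ± 0.48, with Itgax at 1.99 without BAPN replicate 1. Chemokine and cytokine genes were divided, 11 of 20 above and 9 below (median 0.31, or 0.07 without SB273005 replicates 1 to 3). Ccl8, a monocyte chemokine, was below BAPN like Ccl11, at −0.99 ± 0.44 (−0.38 without BAPN replicate 4), and Ccl4 was above at 1.34 ± 0.61 with levels of 0.278 to 1.98 CPM with an inhibitor.

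**Figure D5:**
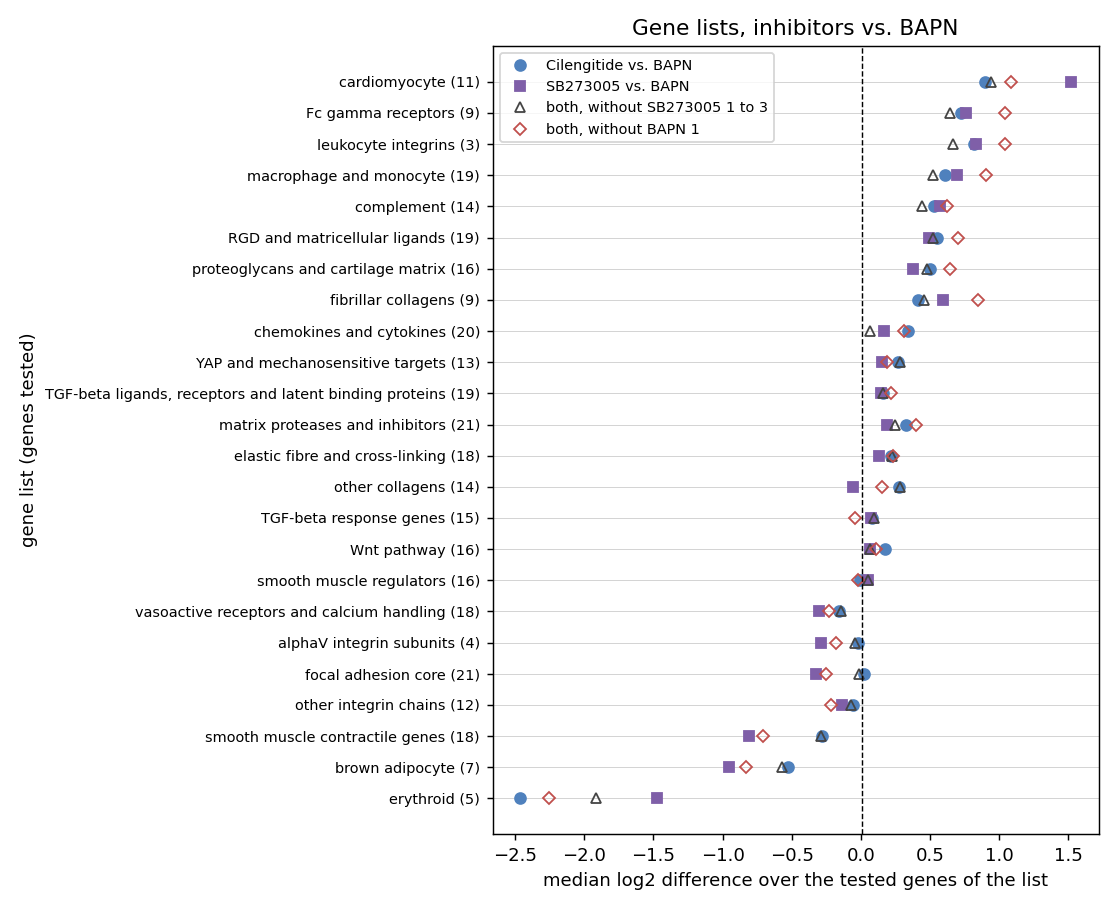
Median log2 difference from BAPN over the tested genes of 24 lists. Symbols are for each inhibitor, and for both together without SB273005 replicates 1 to 3 or without BAPN replicate 1. Values without SB273005 replicates 1 to 3 rest mostly on Cilengitide. The dashed line is the median of all tested genes (0.01). Macrophage, complement and fibrillar collagen lists lie to the right with either inhibitor, other collagens on both sides (0.28 with Cilengitide, −0.06 with SB273005) and contractile genes to the left (−0.28 with Cilengitide, −0.81 with SB273005), and leaving out BAPN replicate 1 moves the fibrillar collagen median from 0.50 to 0.85.

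Markers of other tissues were unequal between the groups too, and their part in the results above was not tested. Of 11 cardiomyocyte genes, 8 were above BAPN with both inhibitors and 0 below, against 34.4% and 33% of all genes. Their median was 1.45, and 0.94 without SB273005 replicates 1 to 3, and 6 were higher at an unadjusted p under 0.05, against 6.5%. Their summed level was 116 to 165 CPM in BAPN, 143 to 290 CPM with Cilengitide, 241 to 701 CPM with SB273005 and 268 to 440 CPM in PBS. Myh7, a ventricular myosin, was at 54.8 to 71.6 CPM in SB273005 replicates 1 to 3, at 2.58 CPM in replicate 4, at 0.472 to 2.42 CPM with Cilengitide, at 0.311 to 2.49 CPM in BAPN and at 43.0 to 50.5 CPM in PBS, so it followed the library sets. All 5 erythroid genes were below BAPN with both inhibitors, each at an unadjusted p under 0.05 (median −1.91), with summed levels of 416 to 5190 CPM in BAPN, 135 to 665 CPM with Cilengitide and 107 to 1710 CPM with SB273005. The globin genes on that list have near-identical copies, between which reads may be split. All 7 brown adipocyte genes tested were below as well (median −0.71), with summed levels of 311 to 742 CPM in BAPN, 249 to 335 CPM with Cilengitide and 89.5 to 296 CPM with SB273005. Within it Ucp1, the defining marker, was at 350 CPM in BAPN replicate 4 and 6.58 to 101 CPM elsewhere among BAPN-fed mice. All 10 skeletal muscle genes were below BAPN with both inhibitors, 0 of them at an unadjusted p under 0.05 (median −1.25), with summed levels of 373 to 3680 CPM in BAPN, 452 to 1040 CPM with Cilengitide and 165 to 790 CPM with SB273005. Of 12 liver genes 11 were below and 1 above, 1 lower at an unadjusted p under 0.05 (median −1.07), and their sums overlapped at 129 to 310, 154 to 190 and 145 to 237 CPM.

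The direct test between the compounds does not use the BAPN libraries and had no pairing term. It called 0 genes in edgeR (0%), with 1224 genes (9.21%) at an unadjusted p under 0.05, and 39 genes (0.295%) in DESeq2. SB273005 replicates 1 to 3 were in the library set of PBS, and all Cilengitide libraries were in the other set. Compound and library set thus differ together except in SB273005 replicate 4, and the values here cannot tell them apart. Among the named genes the intervals were wide. For Stk32b, SB273005 minus Cilengitide was 0.19 (95% interval −0.19 to 0.57), for Daam2 −0.11 (−0.50 to 0.28) and for Adh7 0.14 (−0.57 to 0.85). Itga11 and Col8a1 were at −0.04 (−1.22 to 1.13) and 0.37 (−1.15 to 1.90), intervals over 1 log2 unit wide on either side of 0. The 16 genes chosen by p came from a contrast with BAPN that held 4 SB273005 and 3 Cilengitide libraries. That choice can favour genes further from BAPN with SB273005, so their direction here is a description. Of these 16, 7 had intervals clear of 0, each further from BAPN with SB273005, and 0 of them passed over all genes (edgeR adjusted p from 0.5 to 0.536). They were Inka2 at −0.70 (−1.07 to −0.34), Bdkrb2 at −0.82 (−1.33 to −0.30), Smim5 at −0.68 (−1.17 to −0.20) and Slc5a3 at 0.65 (0.30 to 1.00). Igsf9 at −0.41 (−0.74 to −0.08), Fam118a at −0.34 (−0.63 to −0.04) and Hhipl1 at 0.26 (0.01 to 0.51) were nearer to 0. The same held for Itgb3 at −0.58 (−1.02 to −0.14) and Col27a1 at 0.87 (0.43 to 1.31, edgeR adjusted p = 0.5 for both). These intervals are for single genes and were not adjusted for the number of genes, and the doses of the compounds are not in the labels.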

How the data were processed

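RNA was sequenced from 14 libraries of mouse ascending aorta, grouped by their labels. The submitters' processing notes name HISAT2 2.2.1, StringTie 2.1.6 and the mm10 build. No annotation release or strand setting is given in the sources used here, and close paralogs and overlapping genes are therefore uncertain. The deposited gene table holds the authors' FPKM (fragments scaled to transcript length and library size) and estimated counts, whole numbers as deposited, for 32289 genes. The FPKM set the filter (1 or more in at least 3 libraries, 13294 genes). A gene near that level can pass through the group where it is high. Among the named genes, Galr2, Itgax, Piezo2, Col2a1, Col11a1, P4ha3 and Ccl4 had BAPN and PBS means under 1 FPKM and inhibitor means over it. The counts were tested with edgeR 4.0.16 in R 4.3.3 (TMM, quasi-likelihood, 1 fit of 4 groups over 14 libraries, contrast weighting the 7 inhibitor libraries equally, Benjamini-Hochberg adjustment, threshold 0.05). An estimated count is not a read assigned whole, so the model of counting error is approximate. Levels are TMM-scaled CPM, log2 differences carry an SE worked back from the F statistic, and 95% intervals use a t distribution. Within-group pairs of libraries all differed by more than counting noise, so none was taken for a library deposited again; this does not show that they are separate animals. Same-numbered Cilengitide and SB273005 libraries deviated together in 3 of 3 pairs (r from 0.163 to 0.358), and inhibitor and BAPN libraries in 4 of 7. The main fit had no pairing term, so all intervals and p here are unpaired, also those between the compounds. A replicate block was run as an alternative. DESeq2 1.42.0 and limma 3.58.1 served as alternatives. The code was tested on simulated data.

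The members and gene lists were chosen with earlier results of these data known. Named genes were the 8 smallest p in each direction with the same sign for both inhibitors, a mean of 1 FPKM or more over the 11 BAPN-fed libraries and no predicted gene models; 14 target and disease genes; and up to 3 genes by smallest p of each of 24 lists. Adh7, Col8a2, Col11a1, Cthrc1, P4ha3, Fst, Fzd8, Piezo2, Sdc1, Cdh2, Spry1, Gpr176, Tub, Mreg, Eef2k, H2-Ea and Umod were chosen after their values were seen. The library sets were found in the data. Transcript-level values were not used here.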

Additional observations from a re-analysis of the deposited data

Results flagged for a closer look

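Single libraries far from the rest of their group were looked for in the CPM of 108 named genes, in the BAPN and the SB273005 groups, 216 groups of 4 in all; chance alone sets such a library apart in about 1 in 20 groups, and genes of a kind move together, so the 34 found are not separate events. In 24 of them the library was BAPN replicate 1. It stood above the other 3 BAPN libraries for collagen genes: Col8a1 at 290 CPM, Col8a2 at 43.4 CPM, Col11a1 at 32.2 CPM, Col10a1 at 26.2 CPM and Col2a1 at 13.2 CPM, where the others did not exceed 60.6, 8.85, 1.59, 3.25 and 4.45 CPM. It did so for other matrix and matrix-processing genes: Eln at 26600 CPM, Lox at 1330 CPM, Spp1 at 215 CPM, Fmod at 563 CPM, Mmp2 at 876 CPM, Ctsk at 123 CPM, Cthrc1 at 159 CPM and P4ha3 at 9.27 CPM. Cell surface and signalling genes were high there too: Itga11 at 45.6 CPM, Tns3 at 147 CPM, Fst at 67.0 CPM, Fzd8 at 53.1 CPM, Sdc1 at 122 CPM, Cdh2 at 26.1 CPM, Spry1 at 65.2 CPM, Gpr176 at 19.8 CPM, Mrtfb at 26.7 CPM and Slc5a3 at 29.1 CPM. Id2 was lower in that library, at 117 CPM against 159 to 161 CPM.

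SB273005 replicate 1 stood above its group for Col2a1 at 273 CPM (others up to 24.5), Nid2 at 79.8 CPM (up to 34.2), Tns3 at 305 CPM (up to 142) and Gpr176 at 50.6 CPM (up to 23.1). SB273005 replicate 2 had Tppp3 at 34.0 CPM, below 55.8 to 57.4 CPM, and Sfrp4 at 103 CPM, above 60.3 to 67.2 CPM. SB273005 replicate 4 had Umod at 72.6 CPM, above 29.6 to 35.4 CPM. BAPN replicate 4 had Tppp3 at 162 CPM and Ccl8 at 15.2 CPM, above 88.8 to 96.1 and 4.02 to 5.67 CPM, and BAPN replicate 3 had Vtn at 6.88 CPM, above 0.802 to 1.61 CPM.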

How the results depend on the processing

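With all libraries in edgeR the counts of genes passing were 0 for the inhibitors together, 0 shared, 0 for Cilengitide vs. BAPN, 4 for SB273005 vs. BAPN and 0 for SB273005 vs. Cilengitide. DESeq2 gave 211, 211, 21, 395 and 39. A stricter filter of 5 FPKM gave 3 for the inhibitors, 3 shared and 15 for SB273005; a term for the library set, which rests on SB273005 replicate 4, gave 5, 4, 12 for SB273005 vs. BAPN and 12 between the compounds. SB273005 vs. BAPN had 47 genes and SB273005 vs. Cilengitide 43 without SB273005 replicates 1 to 3, a lone library taken to vary like the rest. Limma gave 15, 14 and 1 for SB273005 vs. BAPN on log2(FPKM + 1), log2(FPKM + 0.1) and quantile-normalised values, and edgeR 0 with no filter and 0 with the 11 BAPN-fed libraries alone. Leaving out BAPN replicate 1 and SB273005 replicate 2 together, chosen after seeing the data, gave 53, 53 shared, 5 for Cilengitide and 26 for SB273005. Leaving out 1 library at a time gave 0 to 49 for the inhibitors, 0 to 49 shared, 0 to 1 for Cilengitide, 0 to 79 for SB273005 and 0 to 15 between the compounds. The causes were not tested. With a replicate block the counts were 7 for the inhibitors (Kcnh2 and Gpr176 among them), 7 shared and 20 for SB273005 vs. BAPN; same-numbered libraries deviated together (r over 0.1) in 4 of 7 pairs with BAPN (range −0.199 to 0.361), and not every library was closest to its own number, so there the samples share a number only. Between the compounds 3 of 3 pairs did, but there too not every library was closest to its own number. Cilengitide replicate 3 had r = 0.35 with SB273005 replicate 4 and 0.297 with SB273005 replicate 3. The block changed no call between the compounds (0 genes).

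The log2 difference turned for Itgb1 to 0.012 without SB273005 replicates 1 to 3 and to 0.0058 with the set term, for Umod to 0.13 and 0.10, and for Vtn to 0.45 without BAPN replicate 3 (−0.92 to 0.45 over the libraries left out). Of 3214 recomputed differences of 108 named genes those 5 turned, 114 in 52 genes passed where they had not before, and the other 3095 kept direction and side of the threshold. Of 1465 list medians, 19 in 11 lists moved by more than the spread between libraries.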
